A study of Homo sapiens with 12 samples.

Results

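NF-κB is a family of transcription factors, and the genes described here are its 5 subunits and 5 genes that act on it or are known targets of it. The subunits are RELA, RELB, REL, NFKB1 and NFKB2. The others are the inhibitor NFKBIA, the deubiquitinase gene TNFAIP3, the adaptor gene TRAF1 and the cellular inhibitor of apoptosis genes BIRC2 and BIRC3. They were found by gene name and are 10 of the 58302 genes listed in the files. BIRC3 was chosen by its FPKM, which were lower after NUF2 knockdown in both cell lines, and the others as subunits and feedback genes, so the values of BIRC3 are a description and carry no test. RNA was sequenced from 769-P and ACHN, established human renal carcinoma cell lines, 48 h after transfection with si-NUF2 or with si-NC. The si-NUF2 cells received a mixture of siRNAs against NUF2, a subunit of the NDC80 complex that holds kinetochores to spindle microtubules. The si-NC cells received the negative control siRNA, and no group was left without transfection. Each of the 4 groups held 3 replicates, 12 libraries in all, and each cell line is a single line, so a difference between 769-P and ACHN belongs to those lines.

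In resting cells, NF-κB dimers are held in the cytoplasm by inhibitor proteins such as the product of NFKBIA. In the canonical pathway, signals from receptors such as the TNF receptor activate the IκB kinase complex, the inhibitor is degraded, and dimers of RELA or REL with the product of NFKB1 enter the nucleus. In the noncanonical pathway, the kinase MAP3K14 accumulates when TRAF3, TRAF2 and the ligases encoded by BIRC2 and BIRC3 no longer degrade it, and the precursor encoded by NFKB2 is processed to a partner of RELB. Several of these genes are themselves transcribed by NF-κB, among them NFKBIA, TNFAIP3, BIRC3, TRAF1, NFKB1, NFKB2 and RELB, and the products of NFKBIA and TNFAIP3 close negative feedback loops. In tumor cells BIRC2 and BIRC3 are known for protecting against death induced by TNF.

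The bases upstream of the members' transcription starts are shown because the pathway is known to act on its own genes through κB sites. The starts and sequences come from RefSeq on GRCh38.p14, and 9 of the 10 members had an entry. BIRC3 and BIRC2 are neighbors on chromosome 11, and the bases upstream of both, as far as they lie outside annotated exons, are given beside those of NFKBIA. For REL, NFKB1 and TNFAIP3 a short window around the match is given. Capitals mark the κB consensus, a motif of 10 letters searched on both strands in the 250 bases before each start, where overlapping matches were joined. The stretches are written 5′ to 3′ on the strand of the gene, which is the forward strand except for NFKBIA.
BIRC3, chr11:102317234-102317449, forward strand: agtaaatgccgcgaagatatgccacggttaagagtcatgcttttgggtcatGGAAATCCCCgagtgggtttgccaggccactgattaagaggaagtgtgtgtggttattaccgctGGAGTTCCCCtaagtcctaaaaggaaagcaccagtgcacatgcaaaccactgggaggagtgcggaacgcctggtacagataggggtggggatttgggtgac
BIRC2, chr11:102346964-102347210, forward strand: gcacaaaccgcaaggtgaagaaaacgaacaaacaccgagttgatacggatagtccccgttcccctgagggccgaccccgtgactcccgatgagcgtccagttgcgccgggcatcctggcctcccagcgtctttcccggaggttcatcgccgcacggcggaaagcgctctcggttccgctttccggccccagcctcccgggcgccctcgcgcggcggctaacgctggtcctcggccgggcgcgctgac
NFKBIA, chr14:35404750-35404999, reverse strand: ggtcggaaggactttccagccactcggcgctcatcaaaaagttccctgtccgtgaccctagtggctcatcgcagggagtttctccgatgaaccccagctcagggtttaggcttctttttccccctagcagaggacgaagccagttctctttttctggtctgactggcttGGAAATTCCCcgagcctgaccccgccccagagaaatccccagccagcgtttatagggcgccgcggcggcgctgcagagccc
REL, chr2:60881518-60881546, forward strand: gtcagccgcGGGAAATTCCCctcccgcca
NFKB1, chr4:102501300-102501329, forward strand: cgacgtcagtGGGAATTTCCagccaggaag
TNFAIP3, chr6:137867188-137867217, forward strand: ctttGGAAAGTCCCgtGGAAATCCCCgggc

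A match was found upstream of 6 of the 9 members with an entry. Of the 15843 protein-coding genes with an entry, 2263 (14.3%) held a match in a window of the same length, and 422 (2.66%) held 2 or more. BIRC3 held 2 separate matches, which began at −199 and −135 counted from its start. TNFAIP3 also held 2, which began at −67 and −55. NFKBIA, NFKB1 and REL each held 1, and the match of REL, GGGAAATTCCC, covered 11 bases because it was found on both strands, shifted by 1 base. NFKB2 has 3 annotated starts, of which the second held GGGAATTCCCC and GGGGCTTTCC and the third held GGGGCTTCCC and GGGACTTTCC. RELA, TRAF1 and BIRC2 held none in these windows, and the BIRC2 stretch printed above has no capitals. A match describes the letters, not the binding of a factor.

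Levels are given in FPKM, fragments scaled for exon length and library size, which compares genes per length. Differences are given on the scale of log2(FPKM + 0.1), which understates the change of low genes. The libraries held 28284362 to 37356581 reads recovered from the FPKM. NUF2 was at 4.17, 3.86 and 3.01 FPKM under si-NUF2 against 19.4, 17.8 and 17.8 FPKM under si-NC in 769-P, and at 2.16, 5.14 and 4.25 against 11.6, 15.0 and 14.8 FPKM in ACHN, so the groups did not overlap in either line. PAX8, PAX2, KRT8 and KRT18 of renal epithelium were present in every library, while CDH6 was at 0 to 0.00472 FPKM in ACHN. The markers of clear cell carcinoma were mixed. CA9 stayed at or below 0.121 FPKM and EGLN3 at or below 0.294 FPKM in all 12 libraries. VEGFA was at 3.16 to 13.5 FPKM. ANGPTL4 was at 7.46 to 30.3 FPKM in ACHN and 0.720 to 1.53 FPKM in 769-P. NDUFA4L2 was at 1.07 to 4.08 FPKM in ACHN and at most 0.0496 FPKM in 769-P. Of the leukocyte and endothelial markers PTPRC, CD3E, CD14, PECAM1, CDH5 and VWF, the highest level in any library was 0.397 FPKM, for CD14. CD14 was at 0.118 to 0.147 FPKM under si-NUF2 and 0.216 to 0.397 FPKM under si-NC in 769-P, at most 24 reads, while PTPRC, which defines leukocytes, reached at most 7 reads in any library. In ACHN, replicate 2 of both siRNA groups stood apart from replicates 1 and 3 for many genes below, and the results are therefore also given by replicate and without it.

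The 5 subunits were transcribed in both lines. RELA (ENSG00000173039, chr11:65653596-65663094, reverse strand), the main activating subunit of the canonical pathway, was at 14.9, 14.0 and 14.0 FPKM under si-NUF2 against 14.7, 14.5 and 14.6 FPKM under si-NC in 769-P. The groups overlapped, and the difference was −0.02 (95% interval −0.17 to 0.14; adjusted p = 0.888 by limma with Benjamini-Hochberg adjustment, as for every adjusted p below). REL (ENSG00000162924, chr2:60881521-60931610, forward strand), the subunit best known from lymphocytes, was the lowest of the 5 at 0.606 to 0.744 FPKM under si-NUF2 and 0.739 to 0.862 FPKM under si-NC. Its difference of −0.23 (SE 0.18) did not pass (adjusted p = 0.469). REL shares 5702 exon bases (43.3%) with the same-strand gene AC010733.2, which was listed at 0 throughout, so reads of the shared part cannot be assigned with certainty.

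The subunit that fell in 769-P was NFKB2 (ENSG00000077150, chr10:102394110-102402529, forward strand), the precursor of the noncanonical pathway. It was at 12.8, 12.5 and 12.8 FPKM under si-NUF2 (12.7 ± 0.176, SD, n = 3) against 21.6, 20.5 and 22.0 FPKM under si-NC (21.4 ± 0.786, SD, n = 3). Every si-NUF2 library was below every si-NC library, and the 3 same-numbered pairs were alike, with NFKB2 at 59.2%, 61.0% and 58.1% of si-NC. The difference was −0.74 (SE 0.065, adjusted p = 0.00369). NFKB2 passed with any single library left out, and did not without both libraries of replicate 2 or of replicate 3 (adjusted p = 0.0955 and 0.0544) or in a single fit of all 12 libraries (adjusted p = 0.351). As RNA was taken from whole cultures, fewer cells that transcribe a gene and less RNA of it per cell cannot be told apart.

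RELB (ENSG00000104856, chr19:45001430-45038198, forward strand), which pairs with the processed NFKB2 product, was at 3.66, 4.81 and 4.19 FPKM under si-NUF2 against 4.60, 6.52 and 5.58 FPKM under si-NC in 769-P. It was lower in each of the 3 same-numbered pairs, at 73.7% to 79.7% of si-NC, although the groups overlapped. NFKB1 (ENSG00000109320, chr4:102501329-102617302, forward strand), the usual partner of RELA, was at 10.7, 10.5 and 11.8 FPKM under si-NUF2 against 12.4, 12.9 and 14.6 FPKM under si-NC, so its groups did not overlap. The differences, −0.37 (SE 0.15) for RELB and −0.26 (SE 0.090) for NFKB1, did not pass in the fit without the replicate block (adjusted p = 0.157 and 0.119). With the replicate number as a block they did (adjusted p = 0.0123 and 0.0189).

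**Figure D1:**
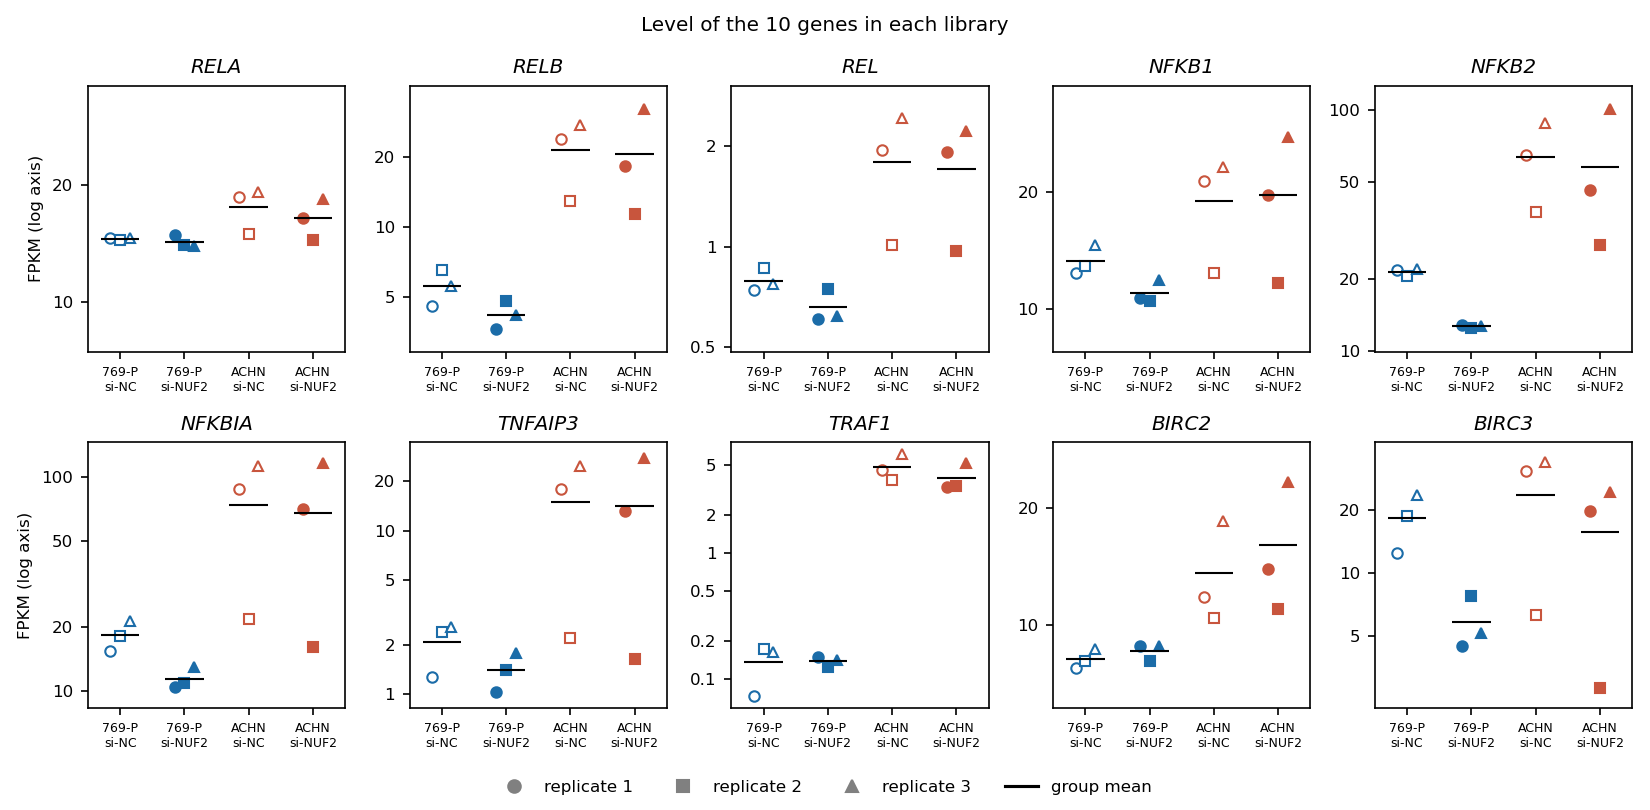
Each panel plots the level of 1 gene in FPKM, on a log axis, in the 12 libraries, with circles, squares and triangles for replicates 1, 2 and 3 and a line at each group mean. NFKB2, NFKBIA, NFKB1 and BIRC3 were lower in all 3 si-NUF2 libraries of 769-P than in any si-NC library, and the squares of ACHN lay lowest for most genes.

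Among the inhibitor and feedback genes, NFKBIA fell in 769-P. NFKBIA (ENSG00000100906, chr14:35401511-35404749, reverse strand), which encodes the classical IκB inhibitor, was at 10.5, 10.9 and 13.0 FPKM under si-NUF2 (11.4 ± 1.33, SD, n = 3) against 15.4, 18.1 and 21.2 FPKM under si-NC (18.2 ± 2.92, SD, n = 3). The groups did not overlap, and the difference was −0.65 (SE 0.13, adjusted p = 0.0296). This call was lost without any one of si-NUF2 replicates 1, 2 and 3 or si-NC replicates 2 and 3 (adjusted p = 0.0536 to 0.0873) and in the fit of all 12 libraries (adjusted p = 0.677), while with the replicate block the adjusted p was 0.00528.

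TNFAIP3 (ENSG00000118503, chr6:137867188-137883312, forward strand), whose product removes ubiquitin chains from signaling adaptors and damps the pathway, was at 1.03, 1.40 and 1.77 FPKM under si-NUF2 against 1.26, 2.40 and 2.56 FPKM under si-NC in 769-P. All 3 pairs were lower with si-NUF2, but the groups overlapped. Its difference of −0.50 (SE 0.29) did not pass without the block (adjusted p = 0.325) and passed with it (adjusted p = 0.0375). It shares 95 exon bases with the antisense gene AL357060.1, which reached 0.914 FPKM at most, and whether the counting used strand is not given in the sources used here. TRAF1 (ENSG00000056558, chr9:120902393-120929173, reverse strand), an adaptor that binds BIRC2 and BIRC3 proteins, was close to absent in 769-P, at 0.0737 to 0.174 FPKM or 14 to 36 reads per library, and was not tested there.

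The 2 cellular inhibitor of apoptosis genes stood side by side on chromosome 11 and differed in their values. BIRC3 (ENSG00000023445, chr11:102317450-102339403, forward strand) was at 4.45, 7.74 and 5.17 FPKM under si-NUF2 (5.79 ± 1.73, SD, n = 3) against 12.6, 18.7 and 23.7 FPKM under si-NC (18.3 ± 5.60, SD, n = 3) in 769-P. In the same-numbered pairs BIRC3 was at 35.5%, 41.3% and 21.8% of si-NC, or 31.6% for the means, and no si-NUF2 library reached a si-NC library. In ACHN, BIRC3 was at 19.9, 2.81 and 24.5 FPKM under si-NUF2 (15.7 ± 11.4, SD, n = 3) against 31.1, 6.31 and 34.0 FPKM under si-NC (23.8 ± 15.2, SD, n = 3). Here the groups overlapped because replicate 2 was low in both, yet each si-NUF2 library was below its same-numbered si-NC library, at 63.9%, 44.6% and 71.9%. The log2 differences were −1.63 in 769-P and −0.73 in ACHN, the values for which the gene was chosen. Without si-NUF2 replicate 2 alone the difference in ACHN was 0.25, and without si-NC replicate 2 alone it was −1.51.

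BIRC2 (ENSG00000110330, chr11:102347211-102378670, forward strand), whose start lies downstream of the end of BIRC3, was at 8.82, 8.04 and 8.81 FPKM under si-NUF2 against 7.74, 8.04 and 8.66 FPKM under si-NC in 769-P. The difference of 0.08 (95% interval −0.11 to 0.27) did not pass (adjusted p = 0.566), and the groups overlapped. In ACHN it was at 13.9, 11.0 and 23.3 FPKM under si-NUF2 against 11.8, 10.4 and 18.5 FPKM under si-NC, higher in each pair (105.5% to 125.4% of si-NC). Its difference there of 0.23 did not pass either (adjusted p = 0.974, or 0.0820 with the block).

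Of the 8 members besides BIRC3 that were tested in 769-P, 2 passed, NFKB2 and NFKBIA, and both were lower, while 4.71% of all 14155 genes tested were called lower and 9.98% in either direction. With the replicate block 5 of the 8 passed, all lower, against 13.9% of all genes called lower and 27.5% in either direction. The 5 were NFKB2, NFKBIA, RELB, NFKB1 and TNFAIP3. Counted by level alone, 3 of the 8 (NFKB2, NFKBIA and NFKB1) had all si-NUF2 libraries below all si-NC libraries, against 17.3% of all genes. The median difference of the 8 was −0.32, against −0.01 over all genes tested.

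In ACHN no member passed. All 9 members besides BIRC3 were tested, and 0 passed in either direction with or without the replicate block, also at an unadjusted p under 0.05 without the block. With the block, the unadjusted p by limma was 0.0154 for TRAF1 (lower) and 0.0162 for BIRC2 (higher), and 4871 of all genes were under 0.05. Of all 15116 genes, 0 passed by limma (0%), with 1238 at an unadjusted p under 0.05, and 1843 (12.2%) passed with the block. The targeted gene NUF2, whose groups did not overlap, also failed without the block (−1.87, adjusted p = 0.224). With the block NUF2 passed (adjusted p = 0.0122). A member's failure to pass without the block therefore says little about its response. No member had all si-NUF2 libraries below all si-NC libraries (6.44% of all genes). The median difference of the 9 was −0.10, against 0.01 over all genes.

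For 5 members of ACHN, pair 3 lay on the other side of 0 from pairs 1 and 2. NFKB2 was at 46.3, 27.4 and 100.1 FPKM under si-NUF2 against 65.2, 37.8 and 88.4 FPKM under si-NC, so the si-NUF2 level was 71.1% and 72.6% of si-NC in pairs 1 and 2 and 113.2% in pair 3. NFKBIA, at 71.2, 16.0 and 116 FPKM against 88.0, 21.7 and 112 FPKM, was at 80.9%, 73.8% and 103.2%. TNFAIP3, at 13.2, 1.64 and 27.8 FPKM against 17.9, 2.20 and 25.0 FPKM, was at 73.8%, 74.4% and 111.4%. RELB and NFKB1 had the same order of signs, with log2 differences of −0.35, −0.19 and 0.25 for RELB and −0.09, −0.08 and 0.27 for NFKB1. This was noticed in the values and was not tested.

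TRAF1, which was low in 769-P, was at 3.36, 3.41 and 5.20 FPKM under si-NUF2 (3.99 ± 1.05, SD, n = 3) against 4.60, 3.85 and 6.11 FPKM under si-NC (4.85 ± 1.15, SD, n = 3) in ACHN. It was lower in all 3 pairs, by −0.42, −0.16 and −0.21, although the groups overlapped. Its difference of −0.26 did not pass (adjusted p = 0.904, or 0.0794 with the block). An alternative chosen after the data had been seen, limma-voom on recovered reads with the block, called TRAF1 lower (−0.28, adjusted p = 0.0189) and BIRC2 higher (0.22, adjusted p = 0.0254). By limma with the block 12.2% of all genes were called in ACHN, and over the alternatives the number called reached 3367. RELA, at 16.5, 14.4 and 18.5 FPKM against 18.7, 15.0 and 19.3 FPKM, differed by −0.08 (adjusted p = 0.988), and REL, at 1.93, 0.967 and 2.22 FPKM against 1.94, 1.01 and 2.42 FPKM, by −0.05 (adjusted p = 0.997).

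**Figure D2:**
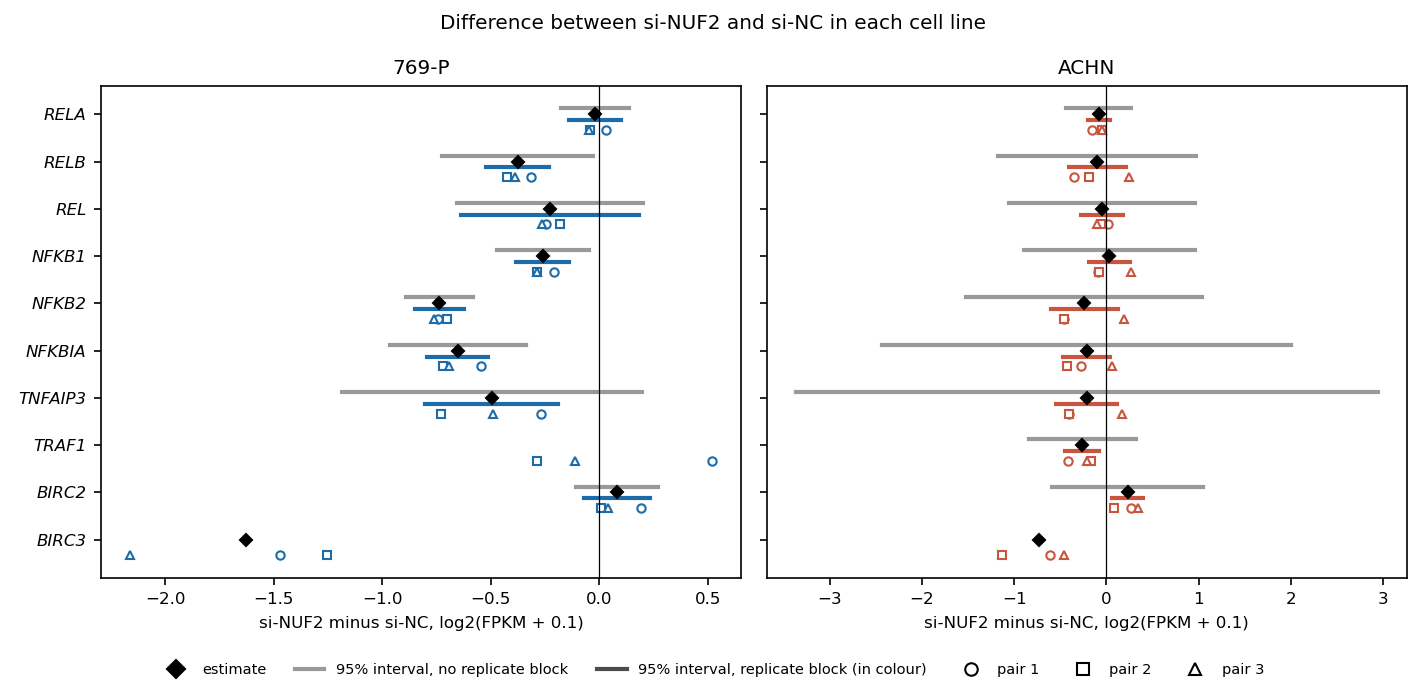
Diamonds show the difference between si-NUF2 and si-NC on the log2(FPKM + 0.1) scale in 769-P and ACHN, bars the 95% intervals without (grey) and with (coloured) the replicate block, and open symbols the 3 same-numbered pairs. BIRC3 is shown without intervals because it was chosen for this difference. In 769-P the interval of NFKB2 ran from −0.89 to −0.58 and that of NFKBIA from −0.96 to −0.34, and in ACHN the grey intervals are wide, from −3.37 to 2.95 for TNFAIP3.

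The difference between the lines in the response to si-NUF2 was tested as an interaction in all 12 libraries. None of the 8 members tested besides BIRC3 passed, with or without the replicate block, nor at an unadjusted p under 0.05 without it. With the block, the unadjusted p by limma was 0.00973 for NFKBIA, 0.0215 for NFKB2 and 0.0253 for NFKB1. Their 95% intervals with the block were −0.74 to −0.14, −0.90 to −0.098 and −0.55 to −0.049. Of all genes, 2879 were at an unadjusted p under 0.05 with the block. Of all 12938 genes, 0 passed (0%; 613 at an unadjusted p under 0.05), and 424 (3.28%) passed with the block. The response of NFKB2 was lower in 769-P by −0.50 (95% interval −1.76 to 0.76; adjusted p = 1.00, or 0.152 with the block). That of NFKBIA was lower by −0.44 (95% interval −2.64 to 1.76; adjusted p = 1.00, or 0.105 with the block). Limma-voom with the block, added after the data had been seen, called NFKBIA (−0.46, adjusted p = 0.0329). Over the alternatives, the number of all genes called for the interaction reached 1010. For BIRC3 the difference was −0.90 and was not tested.

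The replicates of ACHN differed from each other in these genes more than in most. With si-NC, the SD of the 3 libraries on the log2 scale was 1.86 for TNFAIP3, 1.35 for BIRC3 and 1.27 for NFKBIA, while the median over all genes tested was 0.221. With si-NUF2, the SDs were 2.08, 1.70 and 1.49, against a median of 0.214. As few as 0.946% of genes with si-NC and 0.589% with si-NUF2 had an SD as large as TNFAIP3. RELA, at 0.193 and 0.181, lay below the median in both groups. In 769-P the same SDs were 0.521 (TNFAIP3), 0.452 (BIRC3) and 0.221 (NFKBIA) with si-NC, where the median was 0.144. An SD as large was held by 6.24%, 8.27% and 28.6% of genes there with si-NC, in the same order. With si-NUF2 the shares were 12.5%, 10.8% and 40.5%, so TNFAIP3 and BIRC3 were among the more variable genes in 769-P too.

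Replicate 2 held the lowest level of these 3 genes in both siRNA groups. Its levels lay more than 1 below the mean of replicates 1 and 3 on the log2 scale, in both groups, for 4 of the 10 members, TNFAIP3, BIRC3, NFKBIA and REL, and for 468 of the 15116 genes tested (3.10%). TNFAIP3 was lower by −3.49 with si-NUF2 and −3.20 with si-NC, BIRC3 by −2.94 and −2.34, NFKBIA by −2.51 and −2.18, and REL by −1.03 and −1.02. Just outside this limit were NFKB2 (−1.32 and −0.996), RELB (−1.10 and −0.96) and NFKB1 (−1.01 and −0.84). TRAF1 (−0.30 and −0.45), RELA (−0.28 and −0.33) and BIRC2 (−0.72 and −0.50) were closer to the other replicates. The median over all genes was −0.02 and 0.00. The scaling of the libraries keeps this median near 0, so it cannot show whether replicate 2 was low as a whole. In 769-P, 0 members were apart in this way for any replicate.

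The genes that were low in replicate 2 of ACHN included most of those on a list of other NF-κB targets. This list was chosen with earlier results of these data known. Of 19 such genes tested, 14 were more than 1 lower in both groups, against 3.10% of all genes tested. The medians over the 19 were −2.99 (si-NUF2) and −2.60 (si-NC). The 14 were BCL2A1, CCL2, CCL20, CXCL1, CXCL2, CXCL3, CXCL8, ICAM1, IL6, IRF1, PLAU, SOD2, TNFAIP2 and VCAM1. On the other pathway lists, 1 of 18 kinases and adaptors (MAP3K8) and 1 of 9 receptors (CD40) were low in this way. So were 3 of 11 inhibitors (NFKBID, NFKBIZ and TNIP1), 2 of 4 ligands (TNF and LTB) and 0 of 8 genes of linear ubiquitin and the IAP family. Of the 4 renal epithelium markers tested, 1 was low there too, PAX8, while the medians of the 4 were 0.41 (si-NUF2) and 0.45 (si-NC). What the replicate number stands for is not given in the sources used here, and whether a shared culture, day or handling bears on this was not tested. Without both libraries of replicate 2, an alternative added after the data had been seen, 0 members passed for si-NUF2 against si-NC in ACHN, and the differences were −0.14 for NFKB2, −0.11 for NFKBIA, −0.12 for TNFAIP3 and −0.54 for BIRC3.

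**Figure D3:**
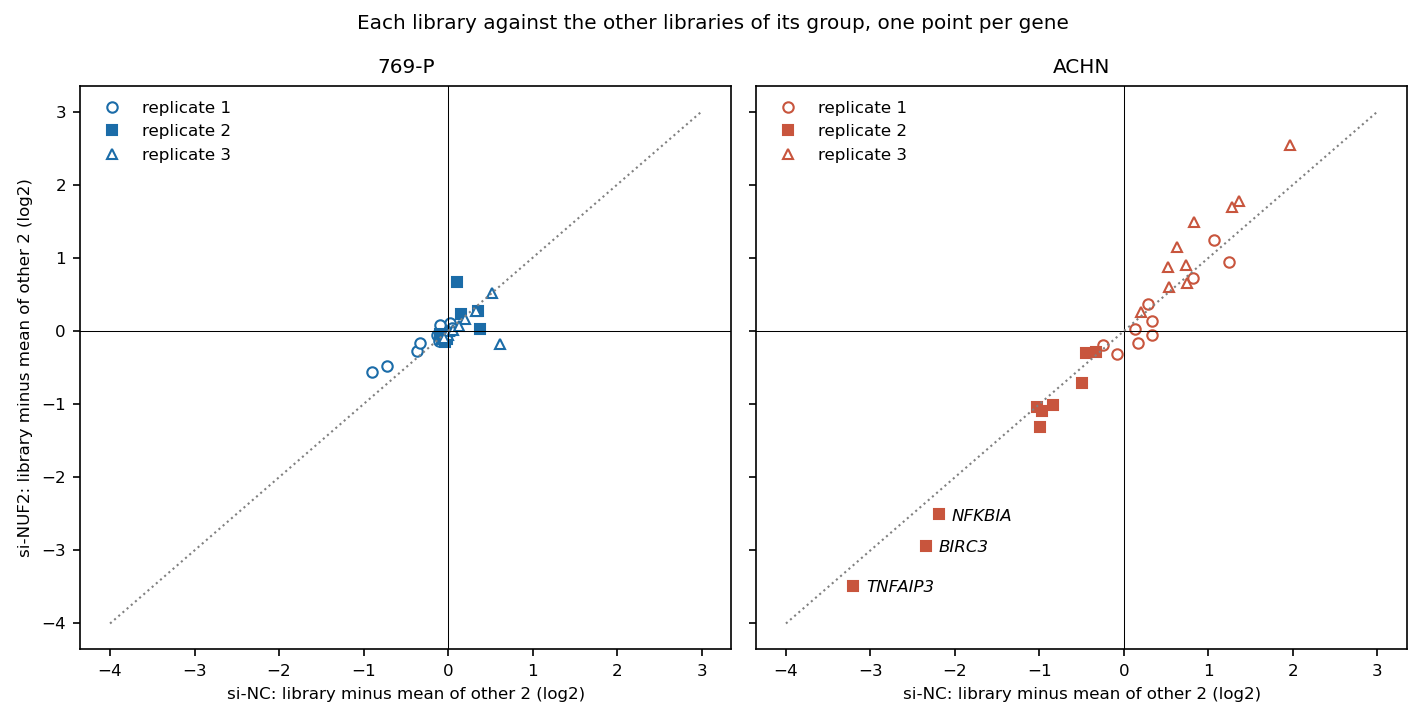
Each point is 1 member and 1 replicate number, with the si-NC library minus the mean of the other 2 libraries of its group on the x axis and the same for si-NUF2 on the y axis, both on the log2 scale. In ACHN, TNFAIP3, BIRC3 and NFKBIA of replicate 2 lie at −3.20 to −2.18 on the x axis and at −3.49 to −2.51 on the y axis, near the dotted line of equal values, and in 769-P the points stay within 1 of 0.

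Without knockdown, several members were lower in 769-P than in ACHN. Under si-NC, 6 of the 9 members besides BIRC3 passed and were lower in 769-P, and 0 were higher, while 29.3% of the 15376 genes tested were called lower in 769-P and 61.5% in either direction. TRAF1 differed most, by −4.36 (SE 0.26, adjusted p = 2.46e-05). RELB, at 5.57 ± 0.963 FPKM in 769-P and 21.4 ± 7.47 FPKM in ACHN (SD, n = 3), differed by −1.83 (adjusted p = 0.00149). NFKB2, at 21.4 ± 0.786 and 63.8 ± 25.3 FPKM, differed by −1.45 (adjusted p = 0.00412). NFKBIA (−1.69, adjusted p = 0.0401), REL (−0.97, adjusted p = 0.0295) and BIRC2 (−0.65, adjusted p = 0.0334) also passed.

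The other 3 did not pass across the lines. TNFAIP3 differed by −2.24 (adjusted p = 0.0588), NFKB1 by −0.43 (adjusted p = 0.161) and RELA by −0.23 (adjusted p = 0.131). BIRC3 was at similar means under si-NC, 18.3 FPKM in 769-P and 23.8 FPKM in ACHN, a difference of −0.05 that was not tested, since its si-NC values took part in its choice. The number of members called depended on single libraries. Without ACHN si-NC replicate 2, all 8 members besides BIRC3 then tested were lower in 769-P, with TNFAIP3 at −3.31 (adjusted p = 0.000336), NFKB1 at −0.71 (adjusted p = 0.00270) and RELA at −0.34 (adjusted p = 0.0206). Leaving out any of the other 5 si-NC libraries left 3 members called. When a library was left out, 7287 to 8129 of all genes were called. RELB and NFKB2 passed in each of the 16 alternatives (adjusted p up to 0.00769 and 0.0178). TRAF1 passed in each of the 13 in which it was tested (adjusted p up to 0.000461).

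By mean level under si-NC, the order in 769-P was NFKB2, BIRC3, NFKBIA, RELA, NFKB1, BIRC2, RELB, TNFAIP3, REL and TRAF1. NFKB2 (20.5 to 22.0 FPKM), BIRC3 (12.6 to 23.7 FPKM) and NFKBIA (15.4 to 21.2 FPKM) overlapped, as did RELA (14.5 to 14.7 FPKM) and NFKB1 (12.4 to 14.6 FPKM), and every other neighboring pair in that order was apart. In ACHN the order was NFKBIA, NFKB2, BIRC3, RELB, NFKB1, RELA, TNFAIP3, BIRC2, TRAF1 and REL, and the neighbors overlapped except NFKB2 with BIRC3 (37.8 FPKM at the lowest against 34.0 FPKM at the highest), BIRC2 with TRAF1, and TRAF1 with REL.

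The other genes of the pathway were followed in lists chosen with earlier results of these data known, and their counts stand beside the share of all genes called in either direction, which in 769-P was 9.98% without and 27.5% with the block and in ACHN 0% and 12.2%. Of 17 kinases and adaptors tested in 769-P, 1 rose and 1 fell, and with the block 3 were lower and 2 higher, a share close to that of all genes. The median difference was −0.08. TRAF3, which brings MAP3K14 to its degradation, rose by 0.70 (SE 0.072, adjusted p = 0.00514), from 4.10 to 6.65 FPKM between the group means. TRADD, the adaptor of the TNF receptor, fell by 0.53 on the log2 scale (adjusted p = 0.0103), from 9.04 to 6.18 FPKM. In ACHN both passed with the block alone, TRAF3 at 0.83 (adjusted p = 0.0122) and TRADD at −0.43 (adjusted p = 0.0167), where 2 of 18 genes of the list were lower and 1 higher.

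Of 11 inhibitors in 769-P, 2 fell and 0 rose (6 lower and 1 higher with the block), and 10 of the 11 had a difference below 0, with a median of −0.25. NFKBIE, which encodes a further IκB protein, was at 6.63 FPKM under si-NUF2 and 11.7 FPKM under si-NC, a difference of −0.80 (SE 0.087, adjusted p = 0.00561). OTULIN, which removes linear ubiquitin chains, differed by −0.71 (adjusted p = 0.0141), from 7.06 FPKM under si-NC to 4.26 FPKM. With the block, BCL3 (−0.50, adjusted p = 0.00931) fell and NFKBIB (0.54, adjusted p = 0.0162) rose, both named after their values had been seen. In ACHN, 2 of 11 were lower with the block, OTULIN (−0.33, adjusted p = 0.0340) and BCL3 (−0.31, adjusted p = 0.0329), and 1 was higher, NFKBIB (0.54, adjusted p = 0.0353). NFKBIE differed there by −0.21 (adjusted p = 0.223 with the block).

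Of 8 genes of linear ubiquitin and the IAP family tested in 769-P, 2 fell and 1 rose, with and without the block, where the shares of all genes were 27.5% and 9.98%. XIAP, the caspase inhibitor of the family, differed by −0.40 (adjusted p = 0.0492) and HTRA2, a mitochondrial protease that counters it, by −0.32 (adjusted p = 0.0369). BIRC5, a subunit of the chromosomal passenger complex in mitosis, rose by 0.57 (adjusted p = 0.0396), from 28.1 to 41.4 FPKM, and passed with the block in ACHN at 0.56 (adjusted p = 0.0122). XIAP passed with the block in ACHN as well (−0.33, adjusted p = 0.0298), and HTRA2 did not (−0.06, adjusted p = 0.529).

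Of the ligands, 2 of 10 could be tested in 769-P and 4 in ACHN, and 0 passed with or without the block. TNFSF10, which encodes TRAIL, was at 34.1 FPKM under si-NUF2 and 34.9 FPKM under si-NC in 769-P (−0.03, adjusted p = 0.980), and TNFSF12, which encodes TWEAK, was at 11.0 and 11.7 FPKM in ACHN. Of 7 receptors in 769-P, 1 fell, TNFRSF11A (−0.73, adjusted p = 0.0251), which encodes RANK. With the block TNFRSF1A, the main TNF receptor, fell as well (−0.45, adjusted p = 0.0130). It also passed with the block in ACHN (−0.28, adjusted p = 0.0417), where LTBR rose (0.31, adjusted p = 0.0248). TNFRSF1A and LTBR were named after their values had been seen.

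Of the 14 other target genes tested in 769-P, 0 fell and 1 rose, BCL2L1, which encodes the survival protein BCL-XL (0.70, adjusted p = 0.0109), from 27.5 to 44.2 FPKM. With the block, 1 fell and 3 rose. The genes other than BCL2L1 were named after their values had been seen. The one that fell was ICAM1 (−0.62, adjusted p = 0.00751), an adhesion molecule, and GADD45B (0.40, adjusted p = 0.0129) and IER3 (0.34, adjusted p = 0.0142) rose with BCL2L1. The median of the list was −0.16. In ACHN, with the block, 4 of 19 were lower and 3 higher. The lower ones, also named after their values had been seen, were CCL20 (−1.64, adjusted p = 0.0197), VCAM1 (−0.99, adjusted p = 0.0215), GADD45B (−0.60, adjusted p = 0.0254) and LIF (−0.33, adjusted p = 0.0341), and the higher ones were CXCL1 (0.84, adjusted p = 0.0153), BCL2L1 (0.33, adjusted p = 0.0287) and IER3 (0.20, adjusted p = 0.0365). GADD45B, a stress-response gene, thus had opposite signs in the lines with the block, and its interaction passed with the block (0.99, adjusted p = 0.0186) and not without it (adjusted p = 1.00). Under si-NC, 14 of 18 other target genes tested were lower in 769-P than in ACHN and 0 were higher, against 29.3% of all genes called lower, with a median of −2.52 against 0.04 over all genes.

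**Figure D4:**
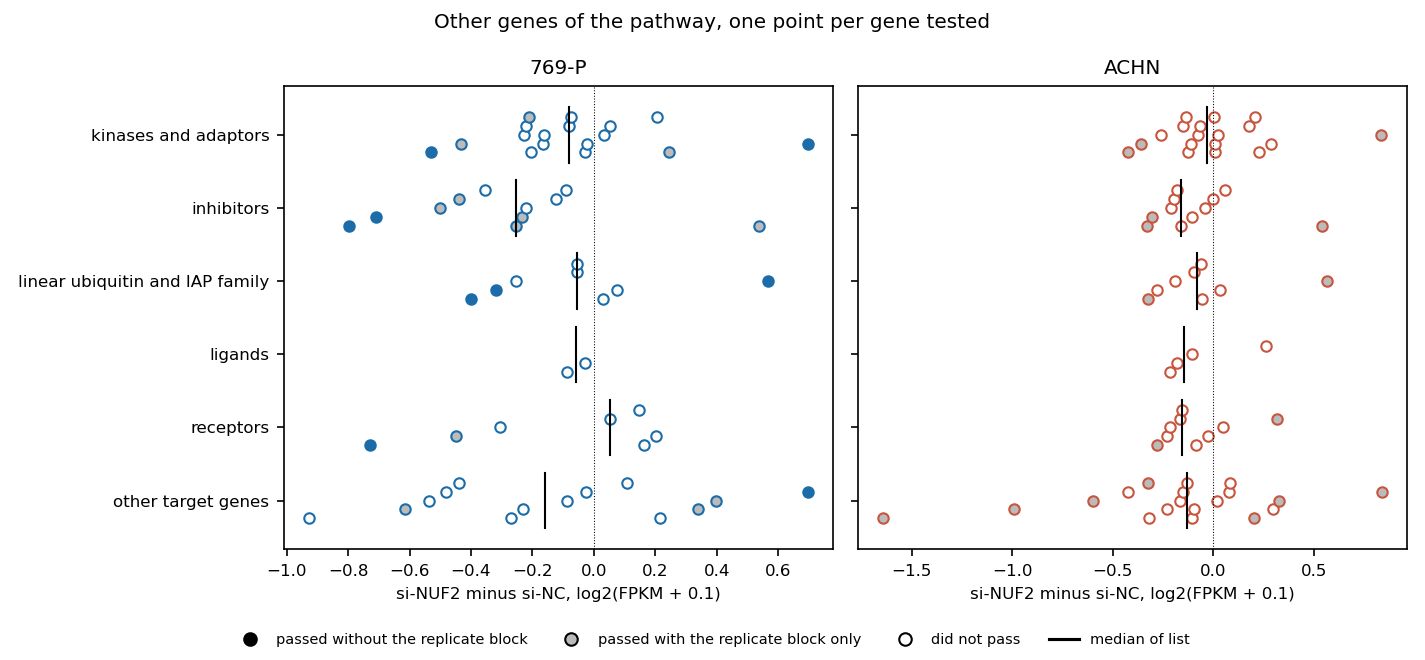
Each point is 1 tested gene of a pathway list, with the difference between si-NUF2 and si-NC on the log2(FPKM + 0.1) scale on the x axis. Colored points passed without the replicate block, grey points with it alone, and the bar marks the median of the list, which for the inhibitors of 769-P is −0.25. No point passed without the block in ACHN.

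The genes whose pattern was most like that of BIRC3 were ranked by Pearson's r over the 12 libraries, after the mean of each cell line had been removed, among 12929 genes. This is a description, since the points share libraries and the siRNA groups. The low replicate 2 of ACHN also enters r in both siRNA groups, so r does not measure likeness in the response to si-NUF2. The highest were SLC22A5 (r = 0.982), a carnitine transporter, SDCBP (0.981), which encodes the scaffold protein syntenin, MAP4K3 (0.967), CYB5A (0.965) and TBC1D8 (0.965). SLC22A5 was at 1.13 FPKM under si-NUF2 and 1.61 FPKM under si-NC in 769-P, and at 1.77 and 2.25 FPKM in ACHN. Among the members, NFKBIA was the most like BIRC3 (0.926, rank 46), and REL (0.904), RELB (0.895), NFKB2 (0.890), TNFAIP3 (0.881) and NFKB1 (0.878) followed. RELA (0.792) was like BIRC3 in ACHN (0.950) and less so in 769-P (0.212), and BIRC2 (0.474) had opposite signs in 769-P (−0.409) and ACHN (0.632).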

How the data were processed

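RNA of 769-P and ACHN with si-NUF2 or si-NC (4 groups of 3) was sequenced on an Illumina NovaSeq, with fastp filtering. The authors deposited 1 FPKM value per gene and library. The submitters' processing notes name HISAT2 2.0.5, featureCounts 1.5.0-p3 and hg38. The study's own calls came from a test on counts. Here limma 3.58.1 in R 4.3.3 was used, at the study's threshold, an adjusted p of 0.05 without a fold limit.

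FPKM were scaled by a trimmed mean of log ratios (30% of log ratios and 5% of levels trimmed) and log2(FPKM + 0.1) was fitted, with a trend, for genes at 0.5 FPKM or more in at least 3 libraries (3 of each line for the interaction). Each line was fitted alone, and p-values were adjusted over all genes tested. Reads were recovered from FPKM and gene length for 97.9% of the 36305 genes above 0, where all libraries gave whole reads. The tolerance was 0.02 reads, and wider for high counts. For 34692 genes the length was the exon length of GENCODE release 29. For 855 it was the shortest length found by search that gave whole reads, as for REL (11254 bases against 13170 annotated). These reads gave depth and were used for limma-voom. Depth limited TRAF1 in 769-P. For RELA, NFKB2 and REL in 769-P, counting error may be as large as the spread between libraries.

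Replicate numbers come from the labels, which do not say whether replicates were separate cultures, so p-values measure the spread between these libraries. Same-numbered libraries deviated together (r = 0.359, 0.271 and 0.190 in 769-P, 0.648, 0.735 and 0.460 in ACHN), so the numbers pair libraries within a line and blocked values are given beside results they change. No libraries of a group were copies of each other.

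The members and lists were chosen with earlier results of these data known. Named were the members, NUF2, the 5 genes most like BIRC3, and from each list up to 4 genes with the largest change among those called in 769-P, else in ACHN with the block, else the 2 highest. Further list genes called with the block were named after their values had been seen, as marked in the text. Alternatives were other scalings, pseudocounts, filters, the block, 1 fit of all 12 libraries and leaving out replicates. Limma-voom and leaving out same-numbered libraries together were chosen after seeing the data. Scripts were tested on simulated data. Python 3.11.15, NumPy 2.4.6, pandas 2.3.3 and matplotlib 3.10.9 were used.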

Additional observations from a re-analysis of the deposited data

How the results depend on the processing

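The number of members called in 769-P was 2 of 8, where 1412 of 14155 genes were called. It became 1 of 9 with no filter on low values (635 of 31645 genes) and 5 of 8 with the replicate block (3898 of 14155). It was 0 of 8 in a single fit of all 12 libraries (775 of 14197) and 5 of 8 with limma-voom and the block (5002 of 13725). When replicates were left out it was 0 to 2, where 0 to 1144 of all genes were called. It was 0 without both libraries of replicate 2 or both of replicate 3. In the fit of all 12 libraries the spread of ACHN enters the test, and NFKB2 kept its difference (−0.75, adjusted p = 0.351 by limma). In ACHN the count moved from 0 to 2 with limma-voom and the block, and for the interaction from 0 to 1. All genes called rose from 0 as well, to as many as 3367 in ACHN and 1010 for the interaction over the alternatives. Across the lines under si-NC, 6 members became 3 with no filter and 3 to 8 when a library was left out. Leaving out a library gave 7287 to 8129 of all genes called there, against 9461 in the main fit. Same-numbered si-NC libraries of the 2 lines did not deviate together (r = −0.057, −0.014 and 0.043), and the replicate block left 6 members and 9146 genes called there. Without ACHN si-NUF2 replicate 2 the difference of BIRC3 in ACHN turned to 0.25, because replicate 2, which is low in both groups, was then left in si-NC alone, and over all settings that left out replicates the value ran from −1.51 to 0.25. The untested difference of BIRC3 across the lines ran from −0.83 to 0.37 when a library was left out. The members that passed without the block, 2 in 769-P and 6 across the lines, kept their sign in every alternative in which they were tested, whereas those called by limma-voom with the block alone did not all do so, with BIRC2 in ACHN at −0.08 to 0.48 and the interaction of NFKBIA at −1.26 to 0.30. Over all genes, the count called in 769-P ran from 0 to 5002, in ACHN from 0 to 3367, for the interaction from 0 to 1010 and across the lines from 7287 to 11234. The block changed the calls of RELB, NFKB1 and TNFAIP3 in 769-P and of no other member for si-NUF2 against si-NC. Of the NFKB2 and NFKBIA calls in 769-P, that of NFKB2 held in 16 of 19 alternatives and that of NFKBIA in 10 of 19. The scale of log2(FPKM + 0.1) understates differences of low genes such as REL and TRAF1, for which counting error is largest.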
